A study of Mus musculus with 576 samples.

Results

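The ZFP36 family is a small group of RNA-binding proteins that shorten the life of messenger RNAs. Its members here are Zfp36 (also called tristetraprolin), Zfp36l1 and Zfp36l2, taken as the rows of the count table whose symbol is one of these names. All 3 were found among 49466 genes, and all 3 were among the 18158 genes with enough counts to be tested. The counts come from single cells of C57/Bl6J mouse fetal liver, dissected at embryonic day 14.5, depleted of lineage-positive cells and sorted to enrich BFU-E (burst forming unit-erythroid), progenitors at an early, committed stage of the red cell lineage. The sorted cells were grown in serum-free medium with 100 ng/mL of stem cell factor, 2 U/mL of erythropoietin and 40 ng/mL of insulin-like growth factor 1, which all groups shared. Dexamethasone cultures also held this synthetic glucocorticoid at 100 nM, and control cultures held none. Cells were taken after 24, 48 or 72 hours, called days 1, 2 and 3. Each day and treatment is 1 plate of 96 wells, so there are 3 dexamethasone plates and 3 control plates, and no label says that they came from different animals or cultures. P-values here thus reflect only how far these plates differ from one another, and such differences can be technical.

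ZFP36 proteins carry a pair of zinc fingers, each holding zinc with 3 cysteines and 1 histidine, that bind AU-rich elements in the tails of messenger RNAs. The bound protein brings in the CCR4-NOT deadenylase, which removes the poly(A) tail, after which the decapping enzymes and the exosome degrade the RNA. Zfp36 is known as an immediate early gene that limits the transcripts of cytokines such as Tnf, and its protein is phosphorylated by the kinase MAPKAPK2 and then held by 14-3-3 proteins. Zfp36l1 and Zfp36l2 are known together for restraining the cell cycle of developing lymphocytes. In mouse, Zfp36l2 has been described as a glucocorticoid-induced gene that BFU-E need for self-renewal. The comparisons of dexamethasone with control and of later with earlier days ask how the family behaves under this hormone and as the cells mature.

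The coding sequence of the first zinc finger is shown because it defines the family and lets its copies be compared. It is taken 5′ to 3′ from the annotated transcripts of the GENCODE vM21 annotation of GRCm38. Capitals mark the codons of the 3 cysteines and the histidine that hold the zinc.
Zfp36: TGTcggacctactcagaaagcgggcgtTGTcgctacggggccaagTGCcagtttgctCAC
Zfp36l1: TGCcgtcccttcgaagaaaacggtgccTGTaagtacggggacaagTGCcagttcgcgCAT
Zfp36l2: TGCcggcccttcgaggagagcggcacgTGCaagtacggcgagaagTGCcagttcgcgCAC
Over both fingers, Zfp36l1 and Zfp36l2 shared 54 of 58 residues and 87.4% of 174 bases. Zfp36 shared 39 residues with Zfp36l1 and 40 with Zfp36l2. The longest identical run between whole transcripts was 32 bases, between Zfp36l1 and Zfp36l2, against 17 bases between Zfp36 and Zfp36l1 and 18 between Zfp36 and Zfp36l2.

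All 3 genes lie on the minus strand of GRCm38 and have 2 exons in their longest transcript. Zfp36 (ENSMUSG00000044786) spans chr7:28376784-28380253, and an antisense gene covers 3.60% of its exon bases. Zfp36l1 (ENSMUSG00000021127) spans chr12:80107754-80113013, and an antisense gene covers 55.9% of its exon bases. Zfp36l2 (ENSMUSG00000045817) spans chr17:84183931-84187947, and no other gene of the table covers its exons. How the counting treated strand is not given in the sources used here, so Zfp36l1 reads under the antisense gene could have been lost or given to it. That antisense gene held 34 counts over all kept cells, against 8405 for Zfp36l1, 7411 for Zfp36 and 17511 for Zfp36l2. Zfp36l3, another family gene of the mouse, had no count in any kept cell, and the pseudogene Zfp36l1-ps had 3 counts.

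After filtering, 563 cells were kept, 92 to 94 on each dexamethasone plate and 93 to 96 on each control plate. A kept cell held a median of 1092431 counts, and a plate between 88178493 and 116623968 counts. The 12 early progenitor markers summed to 1225 to 1818 CPM (counts scaled to the total of the library) in dexamethasone and 991 to 1606 CPM in control. Each of the 12 was detected on at least 1 plate. The 16 erythroid markers summed to 2495, 4030 and 12063 CPM on dexamethasone days 1, 2 and 3, and to 3878, 21851 and 35781 CPM on control days 1, 2 and 3. The 9 macrophage markers summed to 11.4, 9.54 and 14.3 CPM in dexamethasone and to 10.5, 7.62 and 17.2 CPM in control, with C1qa, C1qb, C1qc and Cd5l at 0 on every plate. The depletion before culture used antibodies against Ly-6G and CD11b, which mark neutrophils and monocytes, and 14 markers of these cells summed to 318, 524 and 589 CPM in dexamethasone and to 1335, 3.83 and 2162 CPM in control. The 10 mast cell and basophil markers reached 835 CPM on dexamethasone day 2 and lay between 2.94 and 58.6 CPM on the other plates. The 10 megakaryocyte markers summed to 415, 472 and 283 CPM in dexamethasone and to 370, 90.1 and 94.1 CPM in control. The 8 hepatocyte markers, of which Ttr and Serpina1a were at 0 on every plate, summed to 64.2 CPM on dexamethasone day 2 and to between 0.845 and 5.77 CPM on the other plates. The part of the megakaryocyte, hepatocyte and macrophage markers in the results was not tested. Each group was 1 plate on 1 sequencing lane, so differences between plates, lanes and treatments within a day cannot be told apart. The 96 index pairs that mark wells were used again on other plates, which the lane separates.

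Zfp36l2 had more transcript with dexamethasone on each of the 3 days. Its level, as TMM-scaled CPM of the plate sum, was 40.1 CPM (95% Poisson interval 39.02 to 41.3), 55.6 CPM (54.3 to 57.03) and 31.8 CPM (30.7 to 32.96) on dexamethasone days 1, 2 and 3. On control days 1, 2 and 3 it was 16.2 CPM (15.3 to 17.01), 6.86 CPM (6.37 to 7.37) and 8.06 CPM (7.55 to 8.61). The lowest dexamethasone plate was above the highest control plate, so the groups did not overlap. Across all tested genes, 7.29% had every dexamethasone plate above every control plate. The intervals cover counting error only, since reads without molecular identifiers count amplified copies again. In a plate sum, fewer cells with a transcript and less of it per cell cannot be told apart, so single cells are described further on.

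The daily log2 ratios of Zfp36l2, dexamethasone over control, were 1.31, 3.02 and 1.98. A smallest daily ratio of at least 1.31 was met by 314 of the 18158 tested genes, or 1.73%. Over the 3 days the log2 fold change was 2.10 (SE 0.40), which is 4.29-fold, positive on 3 of 3 days. With edgeR's quasi-likelihood test and Benjamini-Hochberg adjustment over all genes the adjusted p was 0.426, from an unadjusted p of 0.00517. That test had 2 residual degrees of freedom and called 0% of the 18158 genes, while 1971 genes had an unadjusted p under 0.05. DESeq2 on the same sums called Zfp36l2 higher, at an adjusted p of 8.70e-06, where it called 6.67% of all genes, 2.67% higher and 4% lower. Over 16 alternatives the log2 fold change ran from 1.65 to 2.50, and the adjusted p from 8.70e-06 with DESeq2 to 0.846 in edgeR without the dexamethasone plate of day 2.

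Zfp36 had no such separation. Its level was 8.18 CPM (7.68 to 8.71), 14.9 CPM (14.2 to 15.6) and 5.89 CPM (5.42 to 6.38) on dexamethasone days 1, 2 and 3, against 14.3 CPM (13.5 to 15.1), 12.5 CPM (11.8 to 13.2) and 13.4 CPM (12.7 to 14.05) on control days 1, 2 and 3. The dexamethasone plates held both the highest and the 2 lowest values, and the 4 highest plates formed a chain in which each plate's interval overlapped the next. The daily log2 ratios were -0.80, 0.25 and -1.18. The log2 fold change over the days was -0.58 (SE 0.39, edgeR adjusted p = 0.633, DESeq2 adjusted p = 0.462), negative on 2 of 3 days. Leaving out 1 plate at a time gave values from -0.99, without the dexamethasone or the control plate of day 2, to -0.28, without the control plate of day 3. Neither test passed 0.05.

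Zfp36l1 went opposite ways on different days. Its level was 8.80 CPM (8.27 to 9.34), 9.79 CPM (9.23 to 10.4) and 14.8 CPM (14.1 to 15.6) on dexamethasone days 1, 2 and 3, against 16.1 CPM (15.3 to 16.95), 24.99 CPM (24.1 to 25.95) and 5.31 CPM (4.89 to 5.75) on control days 1, 2 and 3. Control plates held the 2 highest values and the lowest. The intervals of control day 1 and dexamethasone day 3 overlapped, as did those of dexamethasone days 2 and 1. The daily log2 ratios were -0.87, -1.35 and 1.48. The log2 fold change over the days was -0.30 (SE 0.68, edgeR adjusted p = 0.912, DESeq2 adjusted p = 0.879), negative on 2 of 3 days. It was 0.06 without the dexamethasone plate of day 1 and 0.07 without the control plate of day 1. It was 0.30 without either plate of day 2, and -1.13 and -1.12 without the dexamethasone and the control plate of day 3. Leaving out either plate of a day leaves dexamethasone to be estimated from the other days alone, so each pair is close to 1 check.

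**Figure D1:**
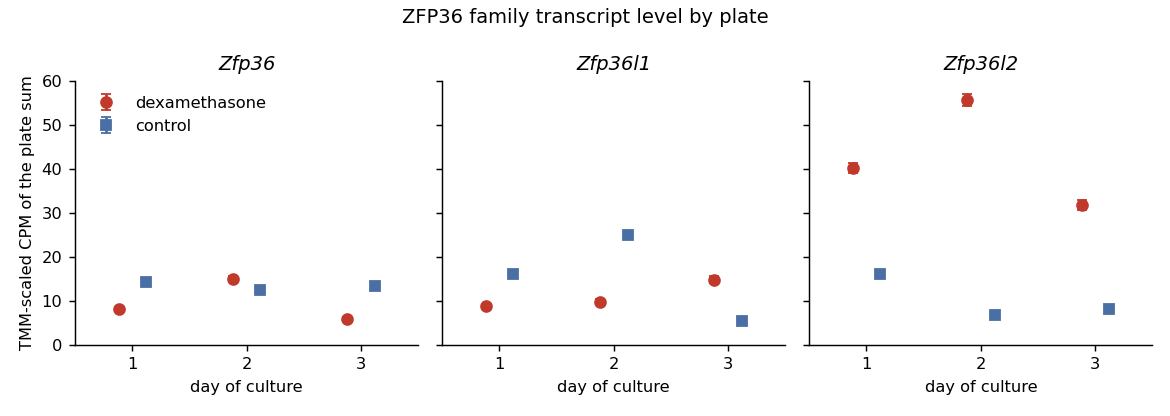
TMM-scaled CPM of each member in the sum of a plate's kept cells, by day of culture, with dexamethasone plates as circles to the left and control plates as squares to the right. Bars are 95% Poisson intervals of counting error, often smaller than the symbol, and Zfp36l2 lies between 31.8 and 55.6 CPM on the dexamethasone plates, against 6.86 to 16.2 CPM on the control plates.

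No member passed the test for a later day against day 1. For day 3 against day 1, with treatment as a term, the log2 fold changes were -0.26 (SE 0.46) for Zfp36, -0.19 (SE 0.81) for Zfp36l1 and -0.72 (SE 0.46) for Zfp36l2, with edgeR adjusted p of 0.832, 0.933 and 0.520. For day 2 against day 1 they were 0.39 (SE 0.47), 0.46 (SE 0.77) and -0.36 (SE 0.47), with edgeR adjusted p of 0.791, 0.852 and 0.812. DESeq2 called none of the 3 members in either comparison, where it called 11.5% of genes for day 3 and 8.42% for day 2, and edgeR called 0% in both. In edgeR, 0 of the 3 members had an unadjusted p under 0.05 in either. Each of these 6 values except Zfp36l2 on day 3 turned its sign when 1 plate was left out.

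The course over days was not the same in the 2 treatments. Zfp36l2 in dexamethasone changed by log2 ratios of 0.47 to day 2 and then -0.81 to day 3, and in control by -1.23 and then 0.23. Zfp36 changed by 0.86 and then -1.34 in dexamethasone, and by -0.19 and then 0.09 in control. Zfp36l1 changed by 0.15 and then 0.60 in dexamethasone, and by 0.63 and then -2.23 in control. With 1 plate per day and treatment these courses carry no test.

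Levels of different genes can be set side by side only per length, for which counts were scaled by the union of a gene's annotated exons and expressed relative to all genes, as TPM. Zfp36l2 made up 68.2%, 67.6% and 57.5% of the family's TPM on dexamethasone days 1, 2 and 3, against 32.5%, 13.97% and 28.9% on control days 1, 2 and 3. The groups did not overlap, and the mean difference was 39.3 percentage points (SD 12.9, n = 3 days). The exact two-sided sign-flip permutation p was 0.25, which is the smallest that 3 days can give. Zfp36 made up 14.1%, 18.4% and 10.8% in dexamethasone, against 29.2%, 25.9% and 48.7% in control, a mean difference of -20.2 points (SD 15.8, exact sign-flip p = 0.25). Without day 3 the mean difference of Zfp36 was -11.3 points. With lengths cut to the exon bases that no other gene covers, but all counts kept, it was -12.7 points (SD 16.3, exact sign-flip p = 0.5). It was then 0.94 points on day 2, and came from groups that overlapped. Shares are parts of the same whole, so a larger Zfp36l2 share lowers those of the other members. The Zfp36 level itself was higher with dexamethasone on day 2, at 13.9 TPM against 10.9 TPM in control. It was lower on days 1 and 3, at 7.68 and 4.97 TPM against 13.8 and 11.2 TPM in control.

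Zfp36l1 made up 17.6%, 14.03% and 31.7% of the family's TPM on dexamethasone days 1, 2 and 3, against 38.2%, 60.1% and 22.4% on control days 1, 2 and 3. Its mean difference was -19.2 points (SD 27.7, exact sign-flip p = 0.5), and the groups overlapped. It was -5.70 points without day 2 and -33.3 points without day 3. The leading member was thus Zfp36l2 on the 3 dexamethasone plates, Zfp36l1 on control days 1 and 2, and Zfp36 on control day 3. The order rests on the length used for Zfp36l1. A length of the 1318 exon bases that no other gene covers would apply only if reads under the antisense gene went uncounted. Whether they did is not known. With that length and all counts kept, Zfp36l1 led on dexamethasone day 3, at 51.1% against 40.9% for Zfp36l2, and on every control plate, at 57.99%, 76.95% and 39.1%. Zfp36l2 then held 55.5%, 57.02% and 40.9% in dexamethasone, against 21.7%, 7.88% and 22.2% in control, and these groups still did not overlap. The family as a whole summed to 54.3, 75.6 and 45.9 TPM in dexamethasone, against 47.3, 42.3 and 23.003 TPM in control, a mean difference of 21.1 TPM (SD 13.3, exact sign-flip p = 0.25) with groups that overlapped.

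**Figure D2:**
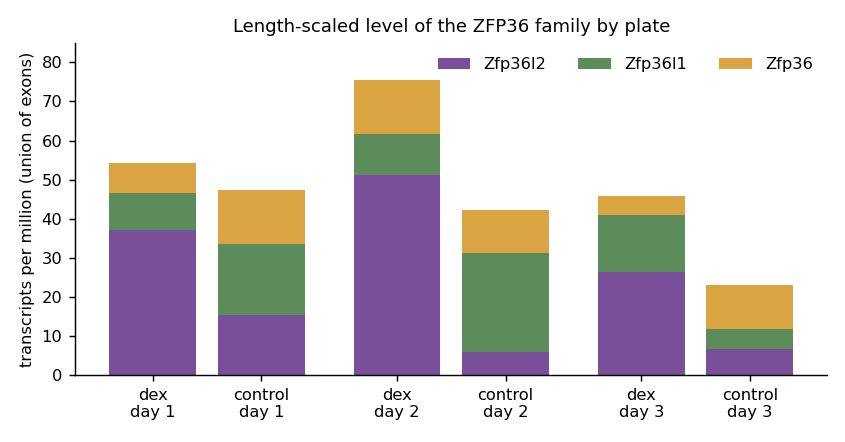
Length-scaled level of the family in TPM for each plate, with dexamethasone (dex) left of control on each day and the 3 members stacked. Zfp36l2, at the base of each bar, makes up 57.5% to 68.2% of the dexamethasone bars, against 13.97% to 32.5% of the control bars.

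Single cells showed the Zfp36l2 difference both in how many cells had a count and in the median level of the cells with a count. The share of cells with at least 1 count was 97.9% (92 of 94 cells, Clopper-Pearson interval 92.5% to 99.7%), 98.9% (91 of 92) and 82.98% (78 of 94) on dexamethasone days 1, 2 and 3. In control it was 78.7% (74 of 94), 52.1% (50 of 96) and 46.2% (43 of 93, interval 35.8% to 56.9%). The mean difference was 34.2 points (SD 14.01, n = 3 days, exact sign-flip p = 0.25). With every cell thinned to 500000 counts, which left out 2 to 5 cells of a dexamethasone plate and 2 to 13 of a control plate, the shares were 95.7%, 97.8% and 78.7%, against 73.6%, 44.6% and 38.5%.

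The median cell had 36.4, 49.2 and 26.6 CPM of Zfp36l2 on dexamethasone days 1, 2 and 3, against 11.5, 0.817 and 0 CPM on control days 1, 2 and 3. These medians include cells without a count, so they fall with the share of cells that have one. Among cells with a count, the median was 36.7, 49.4 and 35.5 CPM in dexamethasone, against 16.7, 7.41 and 4.85 CPM in control. Cells above 100 CPM were 8 of 94, 15 of 92 and 2 of 94 in dexamethasone, and 1 on each control plate. No small set of cells carried the dexamethasone level, since 18 to 20 cells were needed for 50% of the counts on each dexamethasone plate, against 15, 7 and 6 cells on control days 1, 2 and 3.

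Zfp36l1 was found in 73.4%, 73.9% and 72.3% of cells on dexamethasone days 1, 2 and 3, against 80.9%, 77.1% and 51.6% on control days 1, 2 and 3. Its median cell had 3.94, 5.82 and 8.95 CPM in dexamethasone, against 10.3, 17.6 and 0.755 CPM in control. The mean difference in share was 3.37 points (SD 15.2, exact sign-flip p = 1). Zfp36 was found in 50%, 72.8% and 40.4% of cells in dexamethasone, against 57.4%, 51.04% and 34.4% in control, a mean difference of 6.78 points (SD 14.6, exact sign-flip p = 0.75). Both sets of shares overlapped between treatments.

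Zfp36 counts were most concentrated in few cells on control day 3. There, 1 cell held 25.9% of the plate's Zfp36 counts and 4 cells held at least 50% of them, and the highest cell had 370 CPM. Cells needed for 50% of the counts were 9, 15 and 8 on dexamethasone days 1, 2 and 3, and 9, 7 and 4 on control days 1, 2 and 3. For Zfp36l1 they were 10, 11 and 15 in dexamethasone, and 15, 14 and 8 in control. At least 1 of the 3 members had a count in all cells of dexamethasone days 1 and 2 and in all but 1 cell of day 3, against all but 2, 6 and 19 cells on control days 1, 2 and 3. All 3 were found together in 38.3%, 54.3% and 25.5% of dexamethasone cells, against 39.4%, 20.8% and 11.8% of control cells.

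**Figure D3:**
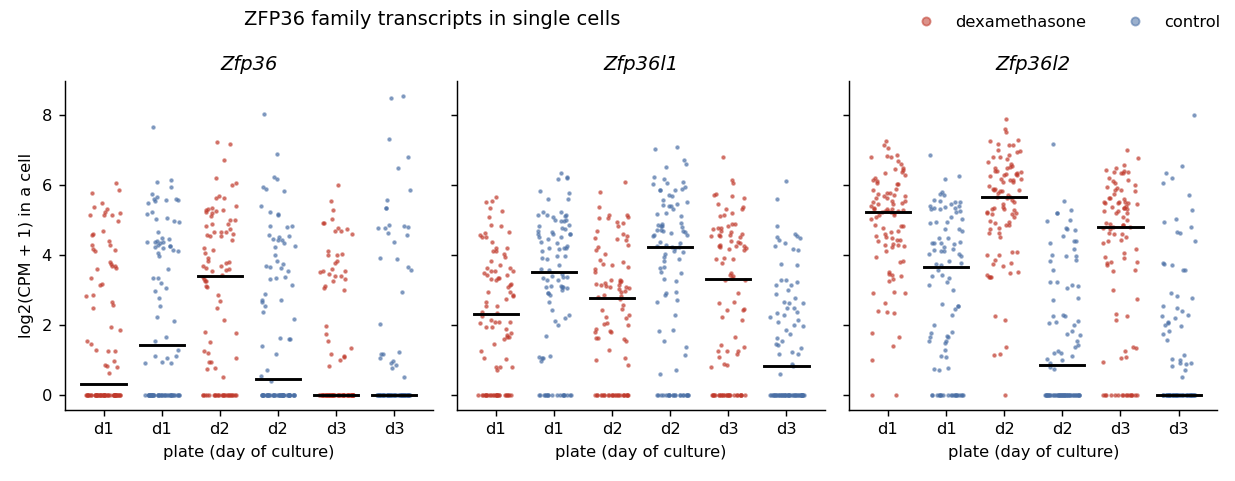
Level of each member in each kept cell, as log2(CPM + 1), with 1 column of points per plate, dexamethasone left of control on days 1 (d1), 2 (d2) and 3 (d3), and black bars at the median cell. The median Zfp36l2 cell on control day 3 is at 0 CPM, against 26.6 CPM on dexamethasone day 3.

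Some cells carried markers of other lineages, and these moved with part of the family's levels. Cells with at least 2 neutrophil or monocyte markers at 10 CPM or more numbered 10, 5 and 10 on dexamethasone days 1, 2 and 3, and 16, 0 and 11 on control days 1, 2 and 3. On control day 3 the 11 such cells held 51.8% of the Zfp36 counts, at 59.6 CPM of the cells' summed counts, against 6.94 CPM in the other 82 cells. They also held 32.9% of the Zfp36l2 counts there, at 22.8 CPM against 5.84 CPM in the others, and the 16 such cells of control day 1 held 32.8%, at 36.5 CPM against 13.003 CPM. Only 6 of the 11 cells of control day 3 had a Zfp36 count, and the other plates differed less. With these markers, Zfp36 stood at 13.3, 14.9 and 6.24 CPM on dexamethasone days 1, 2 and 3, against 8.13, 15.3 and 5.85 CPM without. On control day 1 it stood at 15.8 CPM with them, against 14.4 CPM without.

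On the dexamethasone plates Zfp36l2 was high in both kinds of cell, at 34.4, 63.8 and 36.9 CPM with these markers, against 42.3, 56.97 and 31.3 CPM without. Left out of the plate sums, these cells gave a Zfp36l2 log2 fold change of 2.34 (edgeR adjusted p = 0.322) and a Zfp36 log2 fold change of -0.31 (edgeR adjusted p = 0.762). Without cells carrying at least 2 mast cell or basophil markers, of which 10 were on dexamethasone day 2, the Zfp36l2 value was 2.14 (edgeR adjusted p = 0.377).

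Maturation differed between the treatments too, so Zfp36l2 was also described among cells of like erythroid score, the mean log2(CPM + 1) of the 16 erythroid markers. Levels here are CPM of the summed counts of the cells in a range, given where both plates of a day had at least 5 cells. Among cells scoring 4 to 6, Zfp36l2 stood at 40.98 CPM on dexamethasone day 1 (36 cells), against 13.8 CPM on control day 1 (48 cells), and at 55.3 CPM on dexamethasone day 2 (64 cells), against 9.38 CPM on control day 2 (16 cells). Among cells scoring 6 to 8, it stood at 55.6 CPM on dexamethasone day 2 (9 cells), against 6.15 CPM on control day 2 (24 cells), and at 40.2 CPM on dexamethasone day 3 (41 cells), against 4.36 CPM on control day 3 (17 cells). Zfp36l2 was higher in the dexamethasone cells in each of these 4 pairs, in which 0 to 1 cells per range and plate carried at least 2 neutrophil or monocyte markers.

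The pattern was reversed in the lowest range of day 1 and the highest range of day 3, and kept in the ranges next to them. Among the least erythroid cells of day 1, scoring under 2, Zfp36l2 stood at 25.3 CPM in dexamethasone (10 cells), against 32.6 CPM in control (22 cells). Of these, 6 of the 10 dexamethasone cells and 15 of the 22 control cells carried at least 2 neutrophil or monocyte markers. Among cells scoring 2 to 4, it stood at 45.03 CPM on dexamethasone day 1 (48 cells), against 10.04 CPM on control day 1 (14 cells), and at 40.2 CPM on dexamethasone day 3 (6 cells), against 20.5 CPM on control day 3 (5 cells). On day 3, all 6 of the dexamethasone cells and all 5 of the control cells in this range carried at least 2 neutrophil or monocyte markers. Among cells scoring 8 to 10 on day 3, it stood at 19.8 CPM in dexamethasone (18 cells), against 9.42 CPM in control (30 cells). Among the most erythroid cells of day 3, scoring 10 to 12, it had 0 counts in 6 dexamethasone cells, where 3 counts would be 0.671 CPM and the 95% Poisson interval reached 0.825 CPM, against 4.56 CPM in 37 control cells. The median control cell of this range was also at 0 CPM, and 3 of the 37 carried at least 2 neutrophil or monocyte markers. Zfp36l1 stood at 35.8 CPM in those 6 dexamethasone cells, against 7.05 CPM in the 37 control cells.

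Within plates, Spearman's correlation between Zfp36l2 and the erythroid score was 0.14, -0.09 and -0.34 on dexamethasone days 1, 2 and 3 (94, 92 and 94 cells), and -0.28, -0.24 and -0.11 on control days 1, 2 and 3 (94, 96 and 93 cells). With the early progenitor score it was 0.03, 0.15 and 0.32 in dexamethasone, and 0.49, 0.26 and -0.01 in control. These values describe cells that share a plate, a lane and a preparation. Between members, Spearman's correlation lay between -0.20 and 0.22 over the 6 plates, and no pair kept its sign on all 6.

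**Figure D4:**
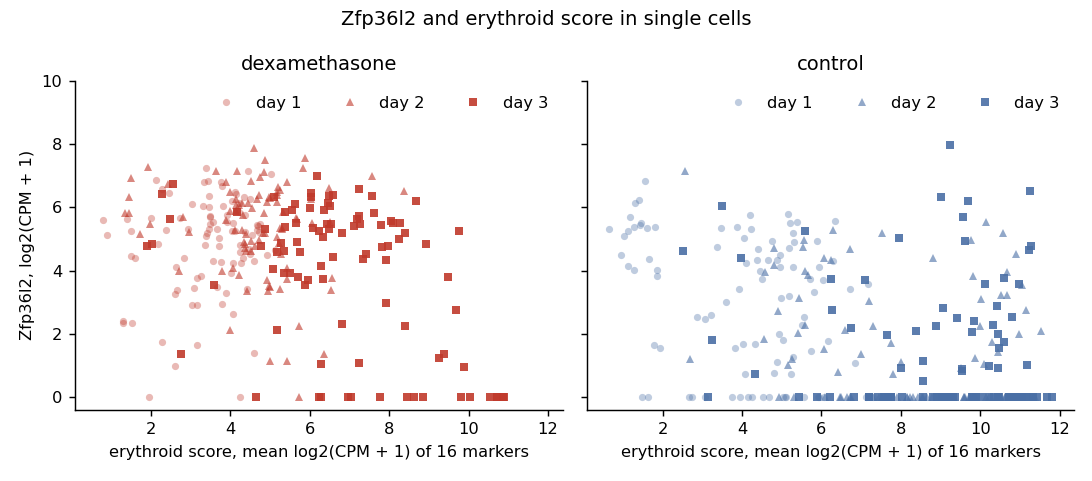
Zfp36l2 level as log2(CPM + 1) against erythroid score in each kept cell, with dexamethasone cells on the left and control cells on the right, and a symbol for each day. The 41 dexamethasone cells of day 3 scoring 6 to 8 sum to 40.2 CPM of Zfp36l2, against 4.36 CPM in the 17 control cells of day 3 in that range.

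Genes whose pattern was most like that of each member were ranked over the 6 plates, by Pearson's r of log2 CPM among the 8285 genes whose mean was 10 CPM or more. With 6 plates and so many genes, values this high are found for many genes. For Zfp36l2, 171 genes reached an r of 0.9, and the 5 highest were Klf9, Nek6, Cox5a, Magohb and Clint1. Klf9, a Krüppel-like factor known as a glucocorticoid target, was highest at an r of 0.9945, with 17.001, 22.02 and 14.7 CPM on dexamethasone days 1, 2 and 3, against 9.82, 6.90 and 7.29 CPM on control days 1, 2 and 3. The 3 lowest were Pias4, Slc20a1 and Ssx2ip, and Slc20a1, a phosphate transporter, had 123, 98.2 and 137 CPM in dexamethasone, against 190, 299 and 305 CPM in control.

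For Zfp36, 31 genes reached an r of 0.9, led by Gon4l, Wipf2, Exoc5, Rabep2 and Bptf, with Vrk2, Pgls and Mis18a lowest. For Zfp36l1, 34 genes did, led by Cabin1, Polm, Slc2a8, Ik and Brpf1, with Trim13, Rap1b and Stat5b lowest. Cabin1, an inhibitor of calcineurin, had 66.4, 58.4 and 77.3 CPM on dexamethasone days 1, 2 and 3, against 84.4, 104 and 46.96 CPM on control days 1, 2 and 3, the same order of high and low plates as Zfp36l1 except that dexamethasone days 1 and 2 changed places.

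Across cells the likeness was of another kind. Among 9572 genes with a count in at least 30% of kept cells, those with the highest mean within-plate Spearman's correlation with Zfp36 were Fos (0.22), Junb (0.21), Egr1 (0.21), Jun (0.20) and the zinc transporter Slc39a1 (0.19). The first 4 are immediate early transcription factors. Spearman's correlation between Zfp36 and the score of the immediate early genes was 0.35, 0.43 and 0.23 on dexamethasone days 1, 2 and 3, and 0.35, 0.42 and 0.01 on control days 1, 2 and 3. That score includes these 4 transcription factors, so it is no separate support for the likeness. Zfp36l1 was most like Arnt, Picalm, Rev1, Smc2 and Tmpo, at mean correlations of 0.17 to 0.19. Zfp36l2 was most like Kit, the stem cell factor receptor (0.20), H2afy (0.19), Rgs19 (0.19), Ier2 (0.18) and Trim27 (0.18). All of these correlations are weak, from sparse counts, and are given as a description. Those with Egr1, Smc2, Kit, Rgs19 and Trim27 were negative on their lowest plate.

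Genes around the family were covered by 7 lists of decay enzymes, other binding proteins, kinases and their partners, described targets and immediate early genes. They held 114 different genes, 104 of them tested. In edgeR, 0 of the 104 passed an adjusted p of 0.05 for dexamethasone, where 0% of all genes did. At an unadjusted p under 0.05, 5 (4.81%) were higher and 10 (9.62%) lower, where 4.81% of all genes were higher and 6.05% lower. DESeq2 called 2 (1.92%) higher and 6 (5.77%) lower, where it called 2.67% of all genes higher and 4% lower. The median log2 fold change was 0.03, beside 0.07 over all tested genes. Every dexamethasone plate was above every control plate for 4 genes (3.85%) and below for 11 (10.6%), where this was so for 7.29% and 5.72% of all genes.

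The deadenylation list, CCR4-NOT and related enzymes, had 16 tested genes, of which DESeq2 called none, and their median log2 fold change was -0.06. Cnot4, a ubiquitin ligase tied to the complex, was at 43.98, 49.3 and 46.1 CPM on dexamethasone days 1, 2 and 3, against 61.6, 63.2 and 59.3 CPM on control days 1, 2 and 3. It was lower on 3 of 3 days, and its log2 fold change was -0.40 (SE 0.13, edgeR adjusted p = 0.433). Cnot9, a scaffold subunit, had a log2 fold change of -0.27, while Cnot6l, a catalytic deadenylase, had 0.74 and Tob2, an adaptor, had 0.40. None of these 4 passed an adjusted p of 0.05 in either test. Cnot4 was the 1 gene of the list with an unadjusted edgeR p under 0.05 (6.25% lower, against 6.05% of all genes).

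Of 17 decapping and 5′ decay genes, DESeq2 called 1 higher (5.88%, against 2.67% of all genes) and none lower. At an unadjusted edgeR p under 0.05, 3 were higher (17.6%, against 4.81% of all genes) and 1 lower (5.88%, against 6.05%). The median log2 fold change was 0.03. Lsm1, of the LSM ring that binds shortened RNA tails and promotes decapping, was at 94.1, 86.2 and 92.1 CPM on dexamethasone days 1, 2 and 3, against 62.5, 52.4 and 55.3 CPM on control days 1, 2 and 3. The groups did not overlap, where 7.29% of all tested genes had every dexamethasone plate above every control plate. The log2 fold change of Lsm1 was 0.68 (SE 0.12, edgeR adjusted p = 0.426, DESeq2 adjusted p = 0.00287), higher on 3 of 3 days. Its ring partner Lsm5 had a log2 fold change of 0.74, the decapping activator Dcp1b had -0.81 and the exonuclease Xrn1 had -0.48, and none of these passed. Of 14 tested exosome genes, DESeq2 called none. At an unadjusted edgeR p under 0.05, 1 was higher and 1 lower (7.14% each), against 4.81% and 6.05% of all genes. The median log2 fold change was 0.09. The core subunits Exosc3 and Exosc1 had 0.42 and 0.33, and the nuclease Exosc10 and the helicase Skiv2l each had -0.33.

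Of 16 other proteins that bind AU-rich or stem-loop elements, DESeq2 called 1 lower (6.25%, against 4% of all genes). At an unadjusted edgeR p under 0.05, 2 were lower (12.5%, against 6.05% of all genes) and none higher. The median log2 fold change was -0.06. Cpeb4, a cytoplasmic polyadenylation factor, was at 5.10, 20.4 and 43.9 CPM on dexamethasone days 1, 2 and 3, against 8.27, 97.0 and 153 CPM on control days 1, 2 and 3. It was lower on 3 of 3 days, and its log2 fold change was -1.60 (SE 0.35, edgeR adjusted p = 0.426, DESeq2 adjusted p = 0.000157). Its level went with the erythroid marker sums, which were also lower with dexamethasone, and their part in the result was not tested. Ybx1, a cold-shock protein, had a log2 fold change of 0.18 and did not pass.

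Of 15 tested kinases, phosphatase subunits and 14-3-3 proteins, DESeq2 called 1 higher (6.67%, against 2.67% of all genes) and none lower. The median log2 fold change was 0.18. Rps6ka1, a ribosomal S6 kinase, was at 164, 492 and 311 CPM on dexamethasone days 1, 2 and 3, against 117, 203 and 222 CPM on control days 1, 2 and 3. Its log2 fold change was 0.75 (SE 0.21, edgeR adjusted p = 0.428, DESeq2 adjusted p = 0.0280), higher on 3 of 3 days, with groups that overlapped. Mapkapk3, a kinase of the same class as MAPKAPK2, had 0.61 and did not pass.

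Of 21 transcripts described as targets of the family, mostly from other cell types, 14 were tested. Csf2, Il2, Il3, Il6, Cxcl1, Cxcl2 and Dll4 were too low to test. DESeq2 called 2 lower (14.3%, against 4% of all genes) and none higher, and the median log2 fold change was 0.17. Pim1, a survival kinase, was at 13.8, 22.8 and 46.7 CPM on dexamethasone days 1, 2 and 3, against 29.5, 61.8 and 138 CPM on control days 1, 2 and 3. Its log2 fold change was -1.36 (SE 0.16, edgeR adjusted p = 0.426, DESeq2 adjusted p = 3.63e-09), lower on 3 of 3 days. Its level, like that of Cpeb4, went with the erythroid marker sums, whose part in the result was not tested.

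Notch1, the receptor, was at 1.46, 3.10 and 1.81 CPM in dexamethasone, against 12.9, 6.32 and 4.61 CPM in control, with no overlap. Of all tested genes, 5.72% had every dexamethasone plate below every control plate. Its log2 fold change was -1.82 (SE 0.59, edgeR adjusted p = 0.434, DESeq2 adjusted p = 0.0308), lower on 3 of 3 days and largest on day 1. It was -1.19 without either plate of day 1, and -1.19 (SE 1.77, edgeR adjusted p = 0.832) without the cells carrying at least 2 neutrophil or monocyte markers. Bcl2, an inhibitor of apoptosis, had a log2 fold change of 0.97 and Ier3, an immediate early gene, had 0.54, and neither passed.

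Of 14 tested immediate early genes, the class to which Zfp36 belongs, DESeq2 called 3 lower (21.4%, against 4% of all genes) and none higher. The median log2 fold change was -0.29, beside 0.07 over all tested genes. Jun was at 23.9, 29.1 and 17.7 CPM on dexamethasone days 1, 2 and 3, against 88.1, 79.4 and 55.5 CPM on control days 1, 2 and 3, with no overlap. Of all tested genes, 5.72% had every dexamethasone plate below every control plate. The daily log2 ratios of Jun were -1.88, -1.45 and -1.65 (DESeq2 adjusted p = 5.39e-14, edgeR adjusted p = 0.426). Btg2, an antiproliferative gene that binds the CCR4-NOT complex, had daily log2 ratios of -1.14, -1.42 and -1.62 (DESeq2 adjusted p = 1.51e-12, edgeR adjusted p = 0.426). It was at 13.9, 108 and 133 CPM on dexamethasone days 1, 2 and 3, against 30.6, 290 and 409 CPM on control days 1, 2 and 3, levels that also went with the erythroid marker sums, whose part was not tested. The third call was Dusp1, a phosphatase that acts on the p38 kinase, at a log2 fold change of -0.61 (DESeq2 adjusted p = 0.0229), named after its value was seen.

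**Figure D5:**
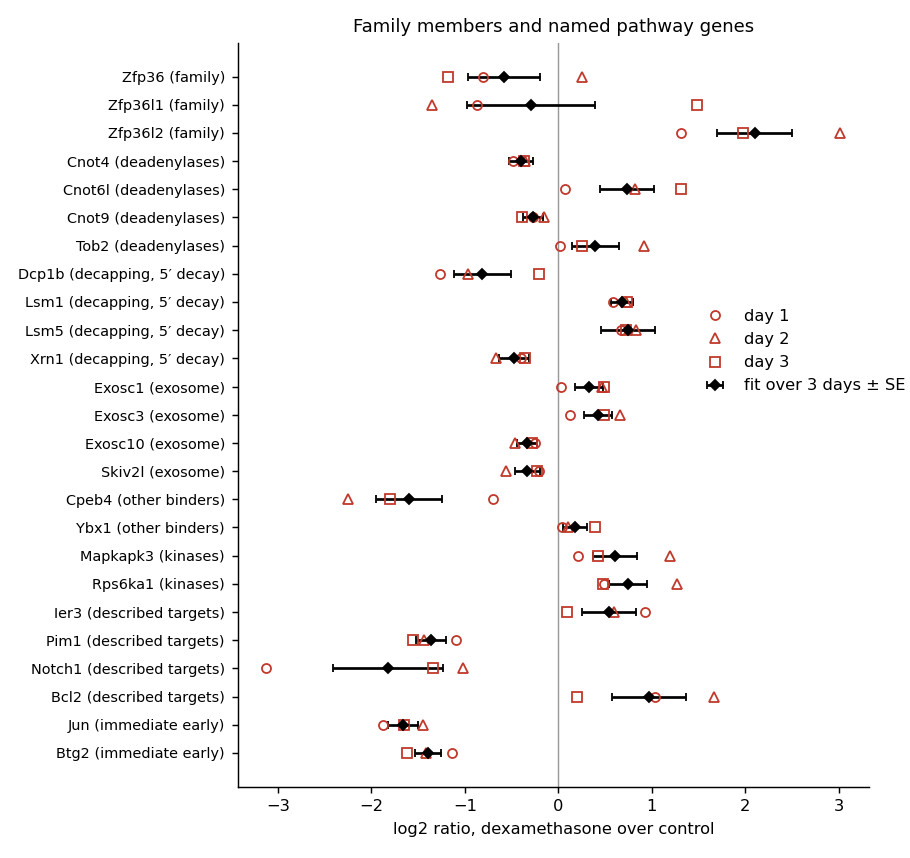
Log2 ratio of dexamethasone over control for the 3 members and the named genes of the decay pathway lists, with the list in brackets. Open symbols are single days without a test and black diamonds the fit over 3 days with its SE, where Zfp36l2 has the largest positive value at 2.10 and Notch1 the largest negative at -1.82.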

How the data were processed

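Per the submitters' processing notes, reads were aligned with STAR 2.4 and counted with featureCounts on GRCm38, and the authors deposited whole-number counts per gene and well. The annotation release and the settings for strand and multiple hits were not given in the sources used here. Of 576 value columns, 575 matched a well's labels and 1 was not used. An empty cell in the header line, 1 beyond the number of values, was dropped. A reading shifted by 1 column would give plates other labels. Wells with at least 50000 counts, at least 1500 genes and at most 20% mitochondrial counts were kept, which removed 12. Doublets were not called, as a sorter filled the wells.

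Plate sums of counts over kept cells were fitted with edgeR 4.0.16 (quasi-likelihood, TMM, filterByExpr by treatment, terms day and dexamethasone, Benjamini-Hochberg over 18158 genes, threshold 0.05). The SE is the log2 fold change divided by the square root of F. DESeq2 1.42.0 and limma 3.58.1 were alternatives. The fits were tested on simulated data. Daily log2 ratios are TMM log2 CPM with a prior count of 2. Genes were matched to GENCODE vM21 (49326 of 49466). Intervals are at 95% confidence. Named pathway genes are up to 2 per list and direction with the largest log2 fold change, the same sign on 3 days and a mean of at least 5 CPM, and 1 gene that this rule names is not reported here. The members, lists and tests were chosen with earlier results of these data known, and the ranges of erythroid score and the mast cell alternative after seeing the data.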

Additional observations from a re-analysis of the deposited data

Results flagged for a closer look

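Some members moved opposite ways on different days or in different treatments, with Poisson intervals that did not overlap on either side. With 1 plate per day and treatment none of these differences was tested. The Zfp36 log2 ratio of dexamethasone over control was 1.06 higher on day 2 than on day 1, and the day 3 ratio minus the day 2 ratio was -1.43. Read over time, its change to day 2 was 1.06 higher in dexamethasone than in control. The Zfp36l1 log2 ratio of dexamethasone over control was 2.35 higher on day 3 than on day 1 and 2.83 higher on day 3 than on day 2. Its change from day 1 to day 3 was therefore 2.35 higher in dexamethasone than in control, and its change from day 2 to day 3 was 2.83 higher. The Zfp36l2 change from day 1 to day 2 was 1.70 higher in dexamethasone than in control, and its change from day 2 to day 3 differed by -1.04, dexamethasone minus control, while its ratio of dexamethasone over control was positive on all 3 days.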

How the results depend on the processing

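No paired analysis was possible because the numbers in the sample titles are wells that hold different cells, so they pair no samples. The plates of a day were linked by the day term and the daily differences. Of 531 alternative values over 39 results, 510 kept their direction and their side of the threshold or moved by less than the spread between days. Another 12 turned their sign, all of them for Zfp36, Zfp36l1 or Zfp36l2. The main edgeR test called 0% of genes, so no fold change could lose a call, and its side of the threshold was easily kept. For fold changes the count thus speaks mainly to direction. DESeq2 carried Zfp36l2 past the threshold at a log2 fold change of 2.08, together with 7 named pathway genes, and counted 23 pathway genes at an unadjusted p under 0.05, against 15 in edgeR. With every cell weighing the same, Zfp36 for day 3 against day 1 was 0.024. Leaving out 1 plate at a time left 1 residual degree of freedom. It gave -1.13 to 0.30 for Zfp36l1 in dexamethasone against control. In that comparison, leaving out either plate of a day uses only the other days, because of the day term. Those fits thus come in near-identical pairs, and both fits of a pair are counted above. For day 3 against day 1 it gave -0.76 to 0.15 for Zfp36, turned without dexamethasone day 3, and -1.72 to 0.87 for Zfp36l1, turned without control day 1 or day 3. For day 2 against day 1 it gave -0.29 to 0.95 for Zfp36, turned without dexamethasone day 2, -0.56 to 1.10 for Zfp36l1, turned without control day 2, and -1.08 to 0.29 for Zfp36l2, turned without control day 1 or day 2. Zfp36l2 in dexamethasone against control was 1.65 to 2.50. The cause of these changes was not tested. With few counts in a cell, a cell without a count may still hold the transcript.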
